A study of Homo sapiens with 6 samples.

Results

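The AP-1 transcription factor genes described here are FOS, FOSB, JUN, JUNB and ATF3, measured in human keratinocytes with and without M1 protein. They were taken by gene symbol from the authors' deposited table of probe sets that differed between the groups, which holds 5 probe sets of these names among 497, 1 for each gene. The cells were HaCaT, an immortalised human skin keratinocyte line grown in medium free of serum and calcium, and both groups had these conditions in common. The 3 control samples were left untreated, and the 3 M1 samples received M1 protein at 5 µg/ml for 6 h before RNA extraction. M1 is a protein of the cell surface and a virulence factor of Streptococcus pyogenes. These 6 samples were hybridised out of 12 prepared, on Affymetrix Human 2.0 ST arrays. The labels call them biological replicates of 1 cell line but do not say whether they came from separate cultures, so every error below measures the spread between these samples only.

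AP-1 is a dimer of basic leucine zipper proteins that binds short DNA elements in the control regions of many genes. Jun proteins pair with each other or with Fos proteins, whereas Fos proteins need a partner such as Jun, and ATF3 pairs with itself or with Jun and related proteins. The FOS, FOSB, JUN, JUNB and ATF3 genes are classical immediate early genes, transcribed soon after growth factors, cytokines, stress or bacterial products reach a cell, mostly through MAP kinase signalling. In the epidermis, AP-1 proteins are known regulators of keratinocyte proliferation, differentiation and inflammatory gene expression.

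The sequence just before the start site is shown for each gene as background. Start-proximal elements of FOS and JUN are textbook examples of signal-dependent control, but any link between these sequences and the differences below was not tested. All 5 genes were matched by symbol in the RefSeq promoter table (build GRCh38.p14), ATF3 with 2 start sites and the others with 1, and the upstream start is shown for ATF3. Each line gives the 130 bases before the start, 5′ to 3′ on the strand of the gene, with the matches to the motifs named below in capitals.
FOS (chr14:75278698-75278827, plus strand): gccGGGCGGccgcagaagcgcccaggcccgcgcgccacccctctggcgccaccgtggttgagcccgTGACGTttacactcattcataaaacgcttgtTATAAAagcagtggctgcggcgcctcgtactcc
FOSB (chr19:45467866-45467995, plus strand): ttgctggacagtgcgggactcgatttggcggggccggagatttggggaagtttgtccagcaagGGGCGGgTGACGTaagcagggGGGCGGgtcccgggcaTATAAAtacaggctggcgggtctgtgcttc
JUN (chr1:58784048-58784177, minus strand): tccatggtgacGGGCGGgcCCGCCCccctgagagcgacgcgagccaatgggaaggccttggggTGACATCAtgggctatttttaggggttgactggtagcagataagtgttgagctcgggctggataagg
JUNB (chr19:12791356-12791485, plus strand): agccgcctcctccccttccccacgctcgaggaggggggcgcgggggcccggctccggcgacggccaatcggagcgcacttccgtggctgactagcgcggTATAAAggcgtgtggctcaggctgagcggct
ATF3 (chr1:212565277-212565406, plus strand): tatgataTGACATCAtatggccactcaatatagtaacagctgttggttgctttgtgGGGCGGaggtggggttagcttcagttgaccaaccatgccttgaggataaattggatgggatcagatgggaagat

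Motifs were searched on both strands of the windows of 250 bases before to 50 bases after each start, 6 windows for the 5 genes and 35116 for all genes in the table. TGACGT, the core of the cyclic AMP response element, lay at -64 to -59 in FOS and at -60 to -55 in FOSB. It was present in 7.98% of all windows. TGACATCA, a variant of the consensus element TGACGTCA, lay at -67 to -60 in JUN and at -123 to -116 at the upstream start of ATF3, and in 2.61% of all windows. The JUN element is known as a binding site for Jun and ATF proteins. Both motifs were chosen after the sequences had been seen, and TGACGT lies within TGACGTCA.

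TATAAA, the core of the TATA box, lay at -33 to -28 in FOS, -30 to -25 in FOSB and -31 to -26 in JUNB. A TATAAA on the strand of the gene whose first base lies 40 to 20 bases before the start, a range also set after seeing the sequences, was found in 2.30% of all windows. Anywhere in the window, TATAAA was found in 11.5% of all windows and in 4 of the 6 windows here. The fourth was the second window of ATF3, at -230 to -225. GGGCGG, which SP1-like factors bind, was in 4 of the 6 windows and in 45.0% of all windows. FOSB and JUN each held 2 copies, FOS and ATF3 1 each at the start shown, and JUNB had none. TGAGTCA, the classical AP-1 element, matched none of the 6 windows and 4.95% of all windows. Neither TGACGTCA (1.85% of all windows), the CArG box bound by serum response factor (1.29%) nor the NF-kappaB site (5.91%) had a match in the 6. These counts describe the letters of the windows and say nothing of sites farther away or of factors bound.

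The array readout was a log2 RMA signal per probe set, where a difference of 1 is a doubling of signal. Signals of different genes are not on a common scale, as each gene has its own probes, so only differences between arrays are compared below. Over 22119 probe sets, the median signal lay between 6.99 and 7.01 on the control arrays and between 6.93 and 6.96 on the M1 arrays. The genes were chosen from a table that the authors had selected on this same comparison, so their differences are descriptions and carry no p-value. The cell line label could not be checked against markers, because the authors' table names only probe sets that differed between the groups. It names 2 of 13 keratinocyte markers, KRT17 and LAMB3, both higher with M1 protein. It names 0 of 24 markers of fibroblasts, leukocytes, endothelium and melanocytes, which says nothing of whether they were expressed. Markers with no name here have no value. In bulk RNA, a change in the share of responding cells and a change in RNA per cell cannot be told apart.

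All 5 AP-1 genes had higher signals with M1 protein, by 2.35-fold for JUNB to 7.31-fold for FOSB. All M1 arrays lay above all control arrays for each of the 5 genes, as they did in 18.6% of all probe sets. All 5 were among the probe sets called higher by limma at an adjusted p (Benjamini-Hochberg) under 0.05, which were 11.6% of all probe sets, and 5 of 5 were also at least 2-fold higher, as 1.51% of all probe sets were. The choice of the genes fixes these counts, and nothing is read from them. The median log2 difference was 2.53 over the 5 genes and 0.0032 over all probe sets.

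**Figure D1:**
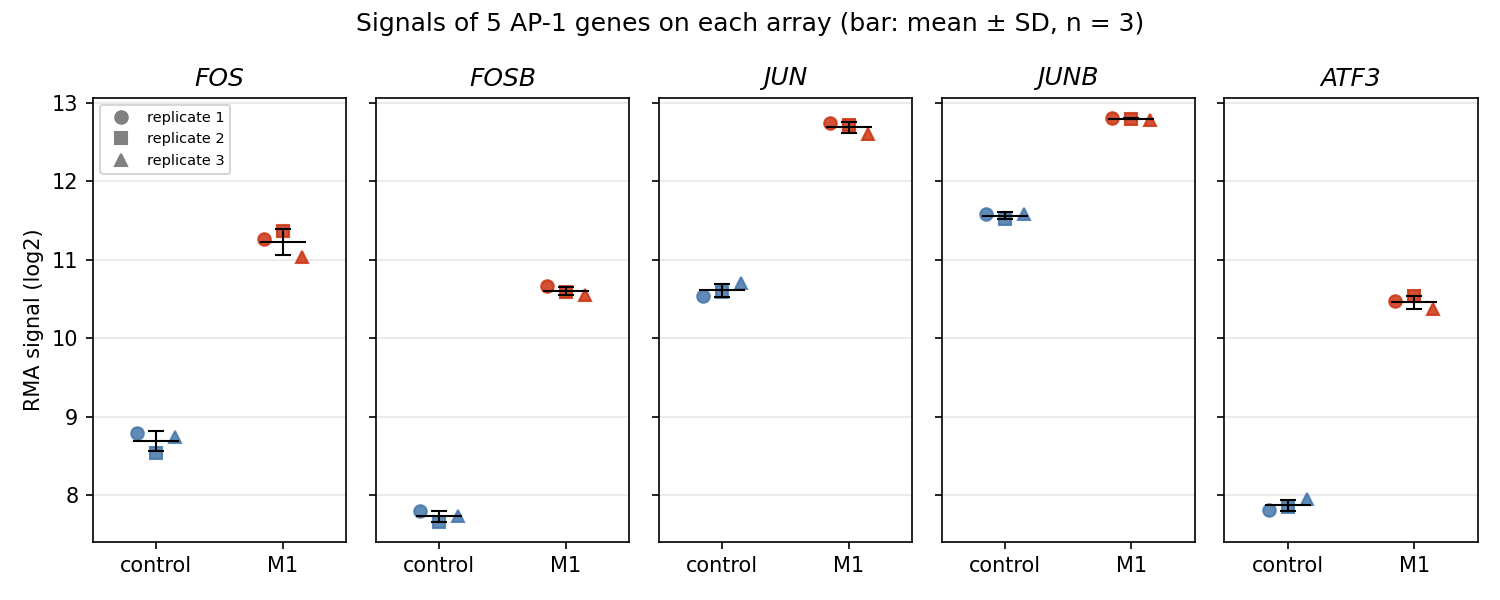
The log2 RMA signal of each AP-1 gene (vertical axis) is plotted for the 3 control and the 3 M1 arrays, with the replicate number as the symbol and the group mean ± SD as bars. In each panel the M1 arrays sit above the control arrays, with the narrowest gap, 1.20, for JUNB and the widest, 2.76, for FOSB.

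Of the Fos genes, FOS encodes c-Fos, an unstable protein that activates transcription only as a dimer with a Jun protein. Its control signals were 8.79, 8.54 and 8.74 in replicates 1 to 3, and its M1 signals were 11.27, 11.37 and 11.04. The group means were 8.69 ± 0.13 and 11.23 ± 0.17 (SD, n = 3 each), a log2 difference of 2.53 ± 0.11 (SE of the fit), or 5.79-fold. The lowest M1 array lay 2.25 above the highest control array, although FOS had the widest spread of the 5 genes in both groups. The probe set, 16786587, represents NM_005252, which the authors' deposited table places at 75745477 to 75748937 of chromosome 14, plus strand. No source used here names the genome build of these positions.

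FOSB encodes a close relative of c-Fos, and splicing of its transcript also gives the shortened and more stable protein known as delta FosB. Its signals were 7.80, 7.66 and 7.74 in control and 10.66, 10.59 and 10.56 with M1 protein. The means were 7.73 ± 0.07 and 10.60 ± 0.05 (SD, n = 3 each), and the log2 difference was 2.87 ± 0.06 (SE), or 7.31-fold. It was the highest difference of the 5 genes, and 18 of the 22119 probe sets had a larger one. Its rise was 21.3 times the wider of its within-group ranges. Probe set 16863287 (NM_006732) is placed at 45971253 to 45978437 of chromosome 19, plus strand, and 1 value per gene does not separate the 2 FosB forms.

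JUN encodes c-Jun, the strongest activator of the Jun proteins and the main target of the JNK kinases, and its protein also acts on its own promoter. Its control signals were 10.54, 10.59 and 10.70, and its M1 signals were 12.74, 12.71 and 12.60. The means were 10.61 ± 0.08 and 12.68 ± 0.07 (SD, n = 3 each), a log2 difference of 2.07 ± 0.07 (SE), or 4.21-fold. The groups were 1.90 apart at their closest. Probe set 16687875 (NM_002228) is placed at 59246463 to 59249785 of chromosome 1, minus strand.

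JUNB encodes a Jun protein that can act as an activator or restrain c-Jun, and whose loss in mouse epidermis is known to give skin inflammation. Its signals were 11.59, 11.51 and 11.59 in control and 12.80, 12.80 and 12.79 with M1 protein. The means were 11.56 ± 0.04 and 12.79 ± 0.01 (SD, n = 3 each), and the log2 difference was 1.23 ± 0.05 (SE), or 2.35-fold, the lowest of the 5. The M1 arrays differed by 0.015, the tightest group of any of these genes. In the authors' deposited table the SAM score of JUNB was 1.78 beside a lowest score of 1.03 for any higher probe set, and its fold change of 2.35 stands beside a lowest of 1.65. Probe set 16858710 (NM_002229) is placed at 12902310 to 12904125 of chromosome 19, plus strand.

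The probe sets of JUN and JUNB were bright in both groups. JUN lay at or above the 94.3rd percentile of the signals of each control array and at the 99.6th to 99.7th of the M1 arrays, and JUNB between the 98.1st and 98.3rd and at the 99.7th. The highest signals on the M1 arrays were 13.69 to 13.73. FOS was between the 73.2nd and 76.8th percentile in control, FOSB between the 60.8th and 62.9th, and ATF3 between the 63.2nd and 65.2nd. The part of signal compression at high intensity in the differences of JUN and JUNB was not tested.

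ATF3 encodes a stress-inducible member of the ATF group that, as a homodimer, represses transcription and that limits inflammatory gene expression in mouse macrophages. Its control signals were 7.82, 7.85 and 7.95, and its M1 signals were 10.48, 10.54 and 10.37. The means were 7.87 ± 0.07 and 10.46 ± 0.08 (SD, n = 3 each), a log2 difference of 2.59 ± 0.07 (SE), or 6.02-fold. Every M1 array was at least 2.42 above every control array. Probe set 16677278 (NM_001040619) spans 55444 bases of chromosome 1, plus strand, at 212738676 to 212794119. With 1 value for the whole probe set, transcripts from the start sites of ATF3 are not distinguished.

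**Figure D2:**
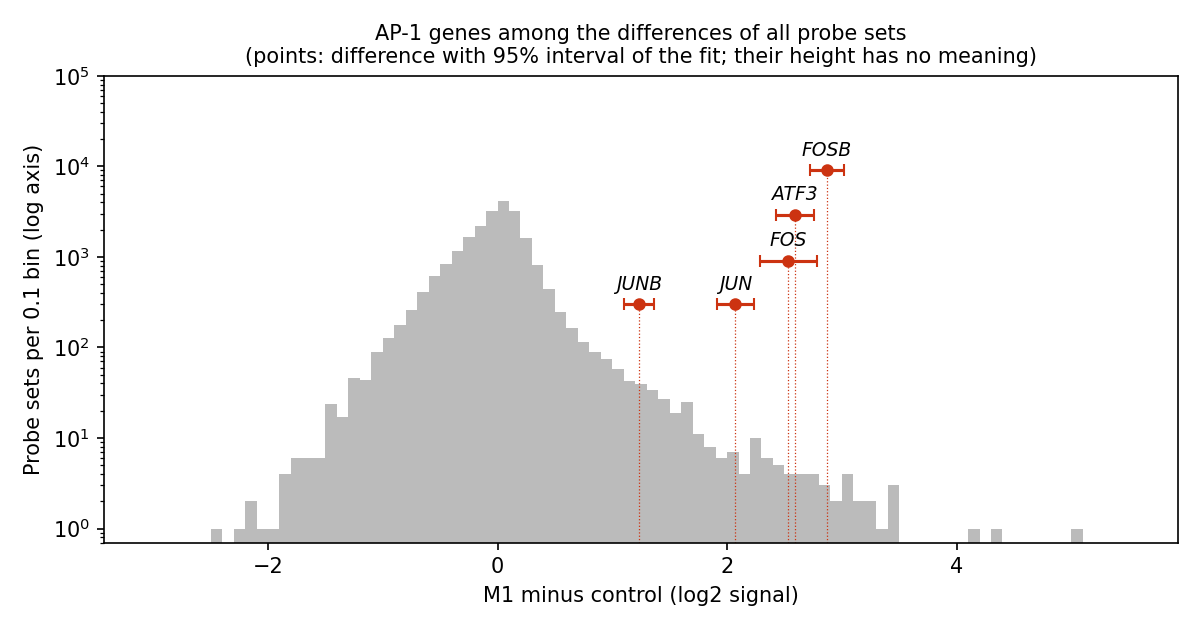
The horizontal axis gives the M1 minus control difference in log2 signal, and the grey bars count all 22119 probe sets per bin of 0.1 on a log axis. The red points mark the AP-1 genes with their 95% intervals, from JUNB at 1.23 to FOSB at 2.87, and their heights have no meaning.

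The order of the log2 differences was FOSB, ATF3, FOS, JUN and JUNB, at ranks 19, 29, 32, 61 and 224 of all probe sets. To see which neighbours were apart, the difference between both genes was taken on each array, and its control and M1 values were compared. Of the 10 pairs, ATF3 and FOS were the only pair whose control and M1 values overlapped, with rises that differed by 0.05 ± 0.10 (SE). FOSB rose more than ATF3 by 0.28 ± 0.07 and more than FOS by 0.34 ± 0.09 on the log2 scale. FOSB minus FOS differed between the closest control and M1 arrays by 0.10, and FOSB minus ATF3 by 0.07. The share of other gene pairs without overlap was not computed, so the count of pairs is a description only. FOS rose more than JUN by 0.46 ± 0.11, and JUN more than JUNB by 0.84 ± 0.06. The Fos genes and ATF3 thus had larger log2 differences than both Jun genes, by 0.46 to 1.64. These are differences between probe sets with different control signals, given without a test.

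Within groups, the AP-1 genes deviated from their means by at most 0.19. M1 replicate 3 had the lowest M1 signal for all 5 genes, from 0.01 below the mean for JUNB to 0.19 below for FOS. That array was the lowest of the M1 arrays in 30.3% of all probe sets and in 50.2% of the 303 probe sets that were higher in the authors' table. In control, replicate 2 was lowest for FOS, FOSB and JUNB, and replicate 1 for JUN and ATF3. Replicate 2 was lowest in 32.8% of all probe sets and in 24.8% of those 303, and replicate 1 in 37.5% and 55.1%. Without M1 replicate 3 the log2 difference of FOS was 2.63 and that of ATF3 2.63, and without control replicate 2 that of FOS was 2.46.

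**Figure D3:**
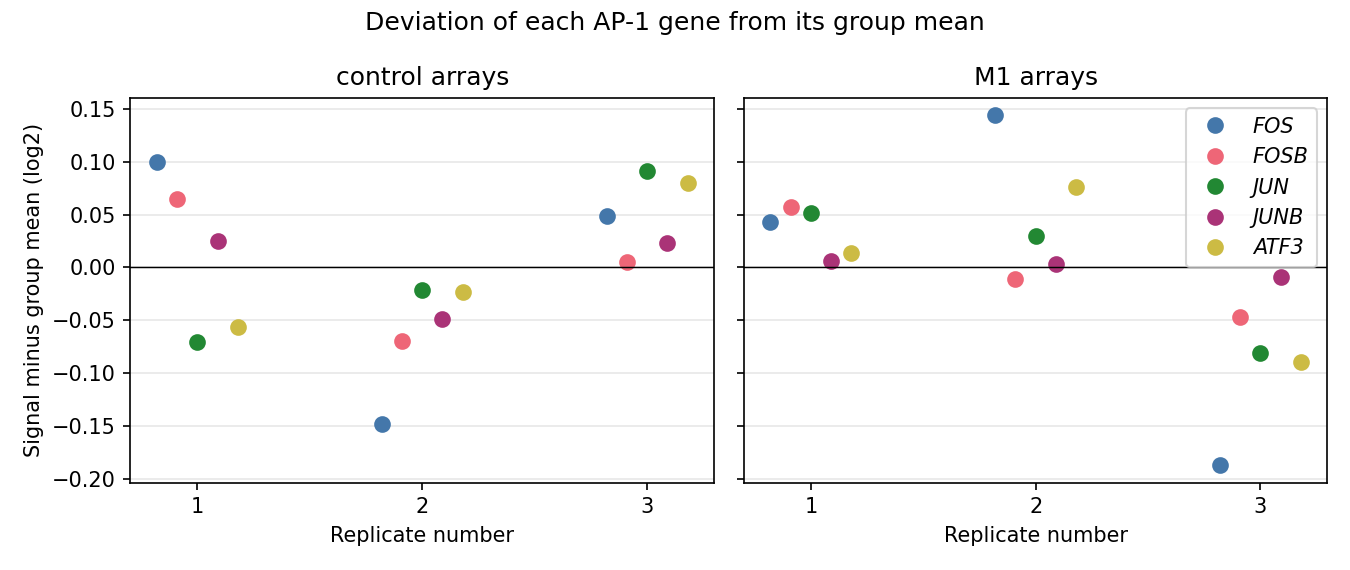
Each point is the log2 signal of 1 AP-1 gene on 1 array minus the mean of its group, for control arrays on the left and M1 arrays on the right, by replicate number. All 5 points of M1 replicate 3 lie below 0, and FOS shows the widest scatter, from -0.19 to 0.14 in the M1 group.

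The named genes with the most similar patterns were found by the mean absolute difference over the 6 arrays, after each gene was set to its own control mean. The authors' table supplied all candidates, so genes with other names were not compared. FOS was most like ATF3, at a mean difference of 0.08, and the cytokine gene IL20 (0.13) was also among its 3 closest. FOSB was most like DUSP1, which encodes a phosphatase that switches off MAP kinases (0.07), then NR4A1, an orphan nuclear receptor gene (0.09), and LCE1F, of the late cornified envelope family (0.10).

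JUN was most like NRARP, a Notch feedback gene (0.05), FST, which encodes the activin-binding protein follistatin (0.05), and CEMIP2 (0.07). JUNB was most like LOC284023 (0.03), STX3, a syntaxin of vesicle fusion (0.03), and the urokinase receptor gene PLAUR (0.03). ATF3 was most like PPP1R15A, which encodes the stress-induced phosphatase subunit GADD34 (0.08), then DUSP4 (0.08) and FOS (0.08). Only the FOS and ATF3 pair had both of its genes among the AP-1 genes. The measure follows mainly the size of the rise, and similarity of pattern is a description of these arrays.

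Of 16 further genes of the AP-1 family, 2 were named in the authors' table and both were higher. The table holds 497 of the 22119 probe sets, and 303 of the 497 were higher. This count and those of the lists below stand beside these shares. For JUND, the Jun gene usually expressed steadily, the control signals were 9.29, 9.43 and 9.44, and the M1 signals were 10.70, 10.69 and 10.77. Its log2 difference of 1.33 ± 0.07 (SE) was close to that of JUNB, and its groups did not overlap. The 14 family members that the table does not name have no value here.

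Of 28 related basic leucine zipper genes, 5 were named in the table and 5 were higher. DDIT3, a stress-induced factor that dimerises with C/EBP proteins, was higher by 1.84 ± 0.10 (SE) on the log2 scale. NFIL3, a repressor, was higher by 1.60 ± 0.07, and CEBPB, a C/EBP activator of inflammatory genes, by 1.22 ± 0.08. BACH1, a repressor that pairs with small Maf proteins, was higher by 0.83 ± 0.06, and CEBPD, a second C/EBP gene, by 0.79 ± 0.07. All 5 lay below FOS, FOSB, JUN and ATF3 in log2 difference, and NFIL3 and DDIT3 lay above JUNB.

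Upstream of the AP-1 genes, 2 of 27 genes of MAP kinases, the EGF receptor and serum response factors were named, 1 in each direction. MAP2K3, a kinase that activates p38, was higher by 0.86 ± 0.05 (SE) on the log2 scale. MAPK14, which encodes p38 alpha, fell by 0.74 ± 0.05, from 10.29, 10.27 and 10.27 in control to 9.53, 9.55 and 9.55 with M1 protein. Of 15 MAP kinase phosphatase, Sprouty and Spred genes, 8 were named and 8 were higher, from 1.41 for DUSP8 to 2.96 ± 0.06 for DUSP1. DUSP5 (2.80 ± 0.09), DUSP4 (2.68 ± 0.07) and SPRY2 (2.21 ± 0.08) followed DUSP1.

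Of 18 other immediate early genes, 13 were named and 13 were higher, with log2 differences from 0.75 for KLF4 to 3.08 for the orphan nuclear receptor gene NR4A2. NR4A1 (3.01 ± 0.09 SE), NR4A3 (2.58 ± 0.16) and EGR1, a zinc finger factor gene (2.27 ± 0.08), came next. FOSB lay just below NR4A1, and JUNB lay below MYC (1.31) and above KLF10, which was 2.14-fold higher. Of 30 genes known to carry AP-1 sites in their control regions, 8 were named and 8 were higher. They included CXCL8, the gene of interleukin-8 (5.05 ± 0.14), HBEGF, a ligand of the EGF receptor (3.25 ± 0.07), CSF2, which encodes GM-CSF (2.30 ± 0.15), and the interleukin-1 beta gene IL1B (2.24 ± 0.10). CSF2 had a mean control signal of 4.44, which is under the 25th percentile on all 6 arrays (5.71 to 5.79), as was NR4A1 at 5.60. None of the 5 AP-1 genes was that dim. All named genes of these lists had been selected by the authors on the same arrays, so their counts give no independent direction. The lists were also chosen with earlier results of these data known.

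**Figure D4:**
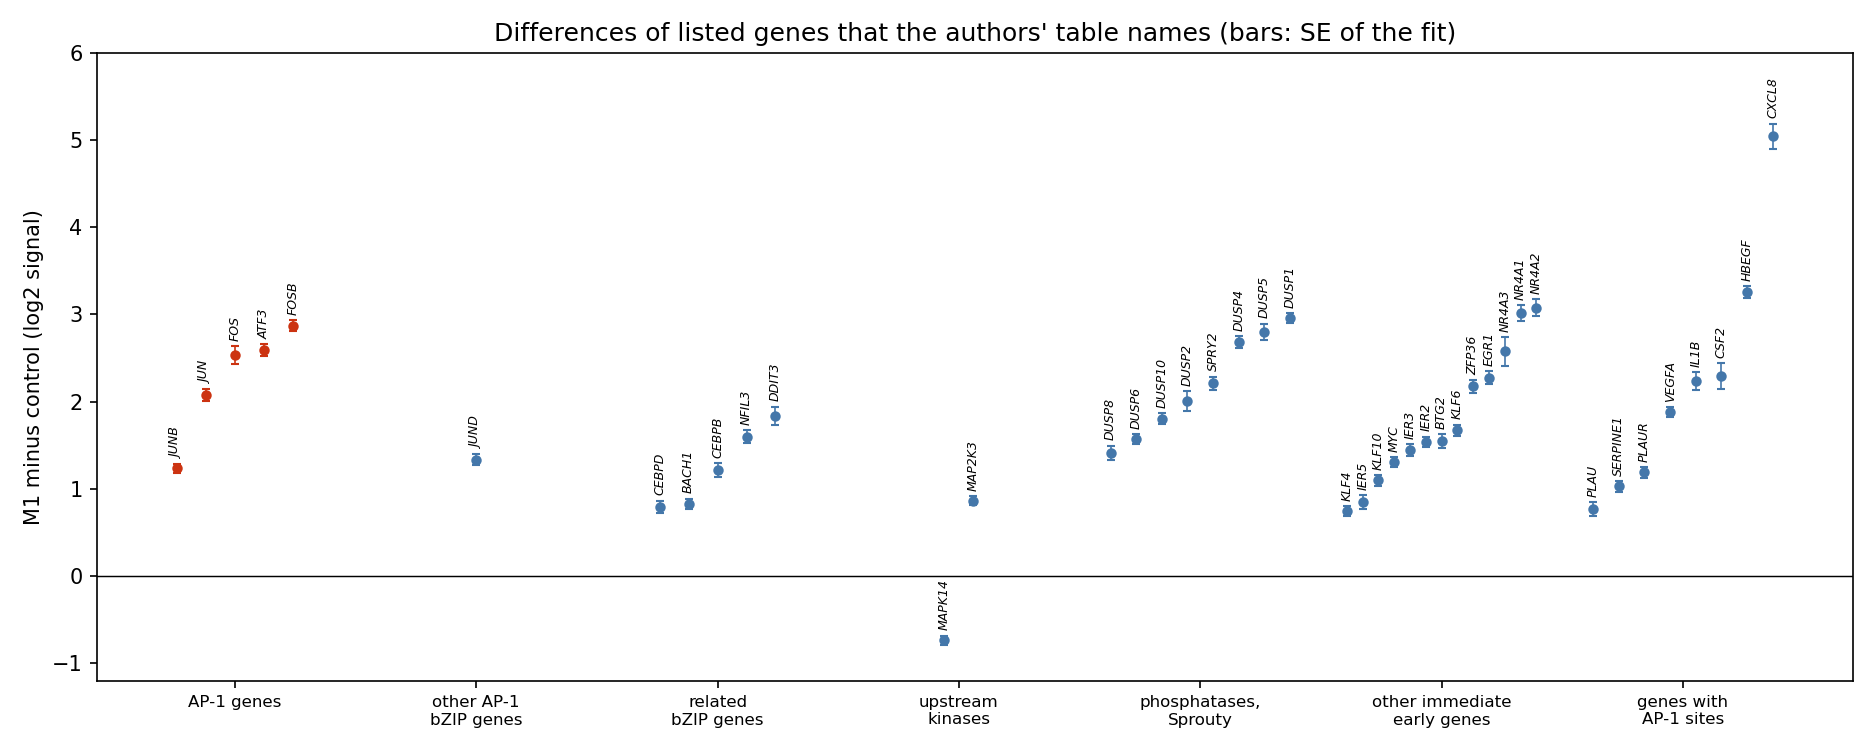
The vertical axis gives the M1 minus control difference in log2 signal with its SE for listed genes that the authors' table names, grouped along the horizontal axis by list, with the AP-1 genes in red. The AP-1 genes run from 1.23 to 2.87, and MAPK14 is the only gene plotted below 0.

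The annotation in the authors' table gave a further view of what the genes have in common. The molecular function term for sequence-specific DNA binding transcription factors was attached to all 5 AP-1 genes and to 58 of 411 annotated probe sets. Protein dimerization activity was attached to FOSB, JUNB and ATF3 and to 9 of the 411. FOS, JUN and JUNB had the terms for responses to cytokine stimulus and to mechanical stimulus, each carried by 6 of 400 probe sets with a process term, and for response to cAMP, carried by 4. Such terms reflect how much each gene has been studied. The cross-hybridisation entry in the authors' table was the same for all 497 probe sets, so it says nothing particular of these 5.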

How the data were processed

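Total RNA of 3 control and 3 M1 samples was hybridised to 1 array each. The deposited values are log2 RMA signals, made with Affymetrix Expression Console 1.1.2, per the submitters' processing notes. RMA corrects background, normalises between arrays and summarises probes. Array signals can be compressed where they are small or very large, and the size of this was not tested. The authors' deposited table of 497 probe sets adds gene names and, per the file headers, the SAM score, a t-test p-value and a fold change (the ratio of unlogged group means), and its signals were identical to the value table.

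All 22119 probe sets were fitted with limma 3.58.1 in R 4.3.3 (lmFit and eBayes, two-sided, Benjamini-Hochberg, no filter), M1 against control, and called at an adjusted p under 0.05. The script was tested on simulated data. The SE of the fit uses a variance that eBayes draws toward that of all probe sets. The SE of the differences between 2 AP-1 genes used only the values of that pair. The number of arrays limits the precision. Symbols were updated through RefSeq accessions (476 of 497 matched). Members, gene lists and rules were chosen with earlier results of these data known. The rule for named genes took the 5 genes, the 3 most similar named genes of each, the bZIP genes of 2 lists and up to 4 genes of each other list by size of difference; a few results it gave for the similar genes and the bZIP genes are not reported here, and DUSP8, KLF4, KLF10 and MYC were named after their values were seen. Protein sequences were not used here. Alternatives were the replicate block, quantile normalization, median centring, a filter on dim probe sets, other variance priors, array weights, an unequal-variance test, fold limits, unlogged means and each array left out.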

Additional observations from a re-analysis of the deposited data

How the results depend on the processing

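The 5 AP-1 genes stayed higher in all 50 gene and setting pairs, and 48 moved by less than the wider within-group SD. JUNB, whose spread was smallest, moved from 1.23 to 1.14 with quantile normalization and to 1.29 with each array centred on its median. Leaving out 1 array gave 2.46 to 2.63 for FOS, 2.83 to 2.90 for FOSB, 2.04 to 2.12 for JUN, 1.21 to 1.25 for JUNB and 2.55 to 2.63 for ATF3. As the groups did not overlap, leaving out an array, weighting arrays or averaging unlogged signals could not turn a direction. Median centring could not either, as the array medians lay between 6.93 and 7.01 and the narrowest gap between groups was 1.20, for JUNB. Quantile normalization keeps the order of signals within an array. Each of the 5 genes already had a higher percentile on every M1 array than on every control array. The kept directions are therefore no test. Over all probe sets, 7245 were called, 2555 higher and 4690 lower, a higher share of 35.3%, which was 49.4% after median centring (3578 and 3670). Without 1 array, 5386 to 6763 were called, 1883 to 2421 higher and 3503 to 4342 lower. With the replicate block, 5821 were called (2047 higher, 3774 lower). The same-numbered samples' deviations correlated at -0.12, -0.12 and -0.0011. The labels do not state a pairing, and these values, which pool all probe sets, cannot settle it. The unequal-variance t-test called 3864 (1438 higher, 2426 lower) with Benjamini-Hochberg and 276 (171 and 105) at an unadjusted p under 0.0001, fewer by its stricter limit. A 1.5-fold limit left 2088 (790 and 1298) and a 2-fold limit 581 (334 and 247), fewer by construction. Of all probe sets, quantile normalization called 7061, median centring 7248, array weights 7513 and the other variance priors 7161 and 7936. After the filter on dim probe sets, 7594 were called. All 5 AP-1 genes were called under every alternative except the unadjusted limit of 0.0001, which 4 passed. JUNB did not (t-test p = 0.000253 in the authors' deposited table). The choice of the genes from a table selected on this comparison largely fixed these calls, and nothing is read from them.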
